A study of Mus musculus with 6 samples.

Results

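RNA levels of 35 genes of glycolysis, glucose and lactate transport and pyruvate entry were compared between the retinas of Myrf +/− and wild-type mice. The genes are the rows of the deposited table of 55450 genes whose symbol stands on a list of 35. Every symbol was found, and where a symbol occurred more than once (Aldoa only) the row with the higher mean level was used. The samples were retinas of C57BL/6 mice aged 8 weeks, with 3 libraries labelled Myrf-kd (Myrf +/−) and 3 labelled WT, and no treatment is named for either group. Myrf is a transcription factor, made as a membrane protein, that oligodendrocytes need to form myelin. The labels leave unsaid how the Myrf allele was altered, whether it is altered in every cell, and whether the samples are separate animals. The p-values below therefore measure only the spread between these samples, which may in part be technical.

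Glycolysis splits glucose into pyruvate in a preparatory phase, which spends ATP, and a pay-off phase, which returns it. Photoreceptors of the retina are known for aerobic glycolysis: most of their glucose is turned into lactate by lactate dehydrogenase although oxygen is present, and lactate leaves cells through monocarboxylate transporters that need the partner protein basigin. Pyruvate that is not reduced to lactate enters mitochondria through the mitochondrial pyruvate carrier and is oxidised by pyruvate dehydrogenase, which pyruvate dehydrogenase kinases switch off.

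The deposited counts summed to between 50695091 units (WT 2) and 70298511 units (WT 3), with about 4 units per fragment. By Xist and Y-linked genes, Myrf-kd 3 and WT 3 were female and the remaining 4 libraries male. Myrf itself was listed between 0.279 and 0.382 FPKM (fragments scaled to gene length and library depth) in the Myrf-kd libraries and between 0.359 and 0.463 FPKM in the WT libraries, so the groups overlapped and its level does not check the labels. Levels are also given in CPM, the counts of a gene scaled to its library total after TMM adjustment. The 9 rod markers summed to between 33772 and 36947 CPM in Myrf-kd and between 38002 and 55693 CPM in WT, and the 8 cone markers to between 1563 and 1604 CPM and between 1465 and 1598 CPM in the same order. The 8 markers of Mueller glia gave between 4607 and 4951 CPM in Myrf-kd and between 4662 and 5160 CPM in WT. The rod sums did not overlap, and their part in the results below was not tested. In whole-tissue RNA, fewer cells of a type and less RNA per cell cannot be told apart. The 9 lens markers summed to 1.95, 0.877 and 64.0 CPM in Myrf-kd 1, 2 and 3 and to between 15.3 and 24.6 CPM in WT, and the lens crystallin genes Crygs, Crybb2 and Cryba1 were at 0 in Myrf-kd 1 and 2. The 7 markers of cornea and surface epithelium summed to between 1.84 and 6.95 CPM in Myrf-kd and between 15.9 and 23.8 CPM in WT. The 12 markers of the retinal pigment epithelium gave between 303 and 368 CPM in Myrf-kd and between 346 and 393 CPM in WT.

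Whether the glycolytic machinery of the retina differs between the genotypes was asked with a single test over all genes of the table. Of the 35 genes, 33 reached a mean of 1 FPKM and were tested, and Pfkfb1 and Slc16a7 did not. None passed: 0 of 33 had an adjusted p under 0.05 (edgeR quasi-likelihood test, Benjamini-Hochberg adjustment), against 0.0439% of all 13673 genes tested. DESeq2 and limma, run on the same 33 genes, each gave 0 as well. By each of the 3 tools 1 of the 33 genes had an unadjusted p under 0.05, where edgeR put 7.49% of all genes. The fitted log2 fold changes, Myrf-kd against WT, lay between −0.58 and 0.47, with 23 estimates above 0 and 10 below. Their median was 0.03, beside 0.00 over all genes tested. For 27 of the 33 genes the estimate was closer to 0 than 0.2, and the median standard error was 0.11. The 3 Myrf-kd levels lay wholly outside the 3 WT levels for 2 of the 33 genes, Slc16a8 and Pfkfb2, both lower in Myrf-kd, whereas 14.6% of all genes separated in either direction and 7.5% with Myrf-kd lower. The share of the 33 genes that separated was thus no larger than that of all genes.

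**Figure D1:**
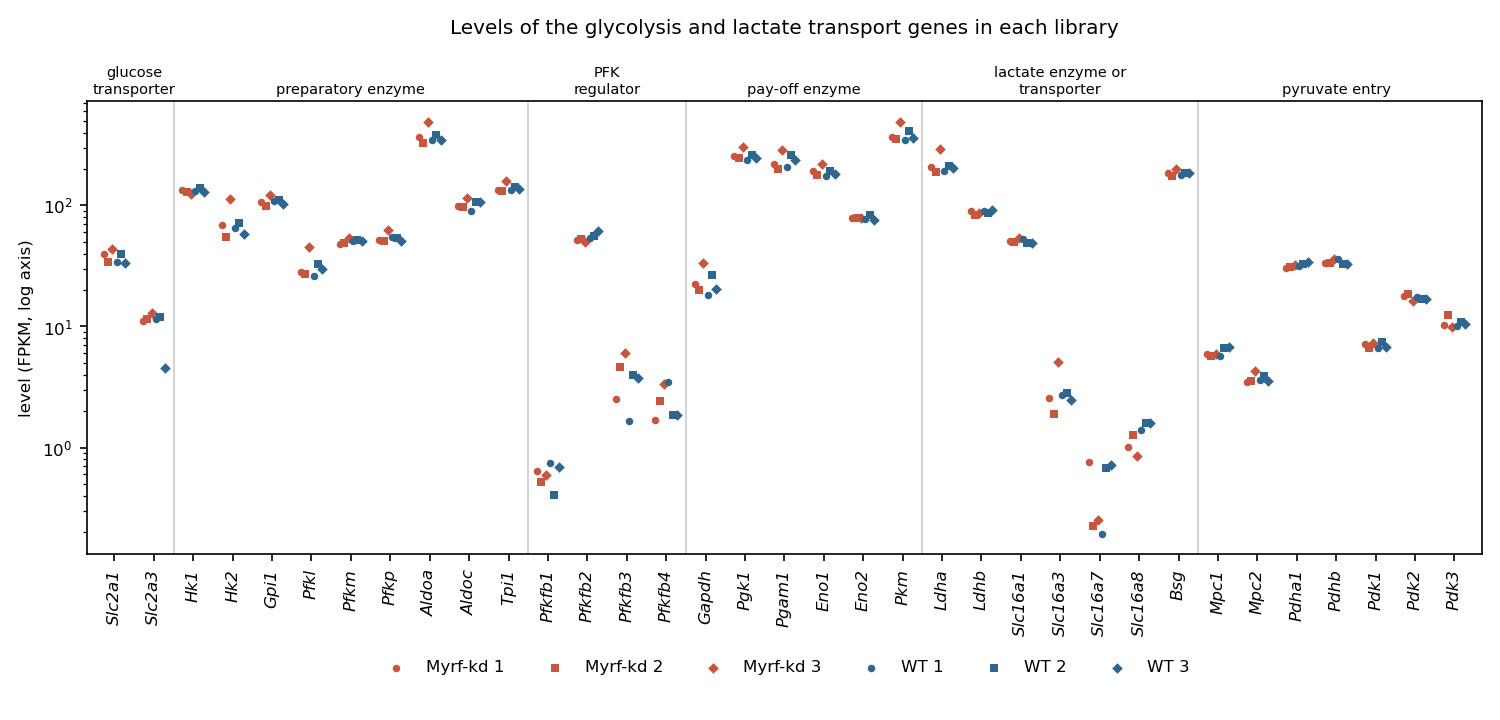
Level of each of the 35 genes in each library, in FPKM on a log axis, ordered by role in the pathway, with 1 point per library (Myrf-kd in red, WT in blue). Aldoa and Pkm lie highest and Slc16a7 and Pfkfb1 lowest, and Myrf-kd 3 (red diamond) is the top point for many of the enzymes.

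The glucose transporters come first in the pathway. Slc2a1, which encodes GLUT1, the transporter of the blood-retina barrier and of photoreceptors, was listed at 39.7, 34.3 and 43.3 FPKM in the libraries Myrf-kd 1, 2 and 3 and at 33.9, 39.5 and 33.7 FPKM in WT 1, 2 and 3. The groups overlapped, and the estimate of 0.11 ± 0.11 (log2 fold change ± SE) did not pass (edgeR quasi-likelihood, Benjamini-Hochberg adjusted p = 0.797). Slc2a3, which encodes the neuronal transporter GLUT3, stood at 11.1, 11.6 and 12.98 FPKM in the Myrf-kd libraries and at 11.4, 11.95 and 4.55 FPKM in the WT libraries. The single low value of WT 3 set its estimate of 0.34 ± 0.33 (edgeR quasi-likelihood, Benjamini-Hochberg adjusted p = 0.797). Without WT 3 the log2 fold change of Slc2a3 was 0.01. Per length, Slc2a3 made up between 21.9% and 25.2% of the Slc2a1 and Slc2a3 total in the other libraries and 11.9% in WT 3.

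Hexokinases trap glucose in the cell as glucose 6-phosphate. Hk1, the hexokinase of most brain and retinal cells, stood at 134, 130 and 124 FPKM in the Myrf-kd libraries and 132, 139 and 128 FPKM in the WT libraries. Hk2 (ENSMUSG00000000628, chromosome 6, 82725025 to 82774454, minus strand, GRCm38), the isoform enriched in photoreceptors, stood at 69.2, 54.7 and 114 FPKM in the libraries Myrf-kd 1, 2 and 3. In WT 1, 2 and 3 it stood at 65.7, 71.5 and 58.3 FPKM. Myrf-kd 3 was far above the other libraries, and Myrf-kd 2 was the lowest of all 6, so the WT levels lay inside the Myrf-kd range. The mean of Hk2 was 79.3 ± 30.8 FPKM over the Myrf-kd libraries and 65.2 ± 6.60 FPKM over the WT libraries (SD, n = 3 each). The log2 fold change of 0.27 ± 0.26 did not pass (edgeR quasi-likelihood, Benjamini-Hochberg adjusted p = 0.795), and without Myrf-kd 3 it was −0.09. Relative to WT the fitted Hk2 level was 120.2%, and its 95% interval ran from 78.4% to 184%.

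The remaining preparatory enzymes did not pass either. Gpi1, glucose-6-phosphate isomerase, ranged from 98.1 to 122 FPKM. Of the phosphofructokinases, which catalyse the committed step, the liver-type Pfkl stood at 28.4, 27.1 and 45.4 FPKM in the Myrf-kd libraries and at 26.3, 32.7 and 29.7 FPKM in the WT libraries. The muscle-type Pfkm lay between 48.2 and 53.4 FPKM and the platelet-type Pfkp between 50.8 and 62.7 FPKM over the 6 libraries. Averaged over the libraries, Pfkl, Pfkm and Pfkp made up 23.0%, 37.3% and 39.7% of phosphofructokinase FPKM. By counts, which are not scaled to length, the mean share of Pfkm was 15.4%. Aldoa, aldolase A, was listed at 364, 327 and 491 FPKM in the Myrf-kd libraries and 348, 381 and 347 FPKM in the WT libraries, with the Myrf-kd 3 value again alone at the top. Aldoc, the brain-type aldolase, ranged from 89.7 to 114 FPKM and Tpi1, triosephosphate isomerase, from 132 to 159 FPKM. Of these 9 preparatory genes, hexokinases included, 7 had estimates above 0 and 2 below, and the median log2 fold change was 0.03; none was called. Fitted levels in Myrf-kd, as a percentage of WT, were 108% for Aldoa (95% interval 84.1% to 140%) and 112% for Pfkl (79.5% to 158%). The intervals were narrower for Tpi1 (87.5% to 118%) and Pfkm (87.5% to 107%). A second Aldoa row, a gene model upstream of the first at a mean of 5.85 FPKM, was left out by the rule. That row, on 56 to 106 fragments in a library, was higher in every Myrf-kd library than in any WT library. Its log2 fold change of 0.38 ± 0.14 did not pass (unadjusted p = 0.0326, edgeR quasi-likelihood, Benjamini-Hochberg adjusted p = 0.666).

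The Pfkfb genes encode the enzymes that make and break fructose 2,6-bisphosphate, the strongest activator of phosphofructokinase. Pfkfb2 was the main form in these retinas, at 52.1, 52.9 and 49.8 FPKM in the Myrf-kd libraries and 53.3, 56.2 and 61.6 FPKM in the WT libraries. All 3 Myrf-kd values were below all 3 WT values, by a small margin. The log2 fold change was −0.16 ± 0.07 (unadjusted p = 0.0638, edgeR quasi-likelihood, Benjamini-Hochberg adjusted p = 0.685), and the fitted level relative to WT was 89.2% (95% interval 78.9% to 101%). Of the exon bases of Pfkfb2, 1262 also lie in the same-strand gene model Gm29427 (mean 9.35 FPKM), so how the authors' counting divided those reads bears on this value. Pfkfb3, the form induced by low oxygen and inflammatory signals in many tissues, stood far lower, at 2.52, 4.61 and 6.06 FPKM in the Myrf-kd libraries and 1.64, 3.99 and 3.74 FPKM in the WT libraries. Its levels varied 3.69-fold between libraries, and the groups overlapped (log2 fold change 0.47 ± 0.42, edgeR quasi-likelihood, Benjamini-Hochberg adjusted p = 0.782). The estimate was 0.16 without WT 1, 0.16 without Myrf-kd 3 and 0.75 without Myrf-kd 1. Pfkfb4 lay between 1.69 and 3.47 FPKM, with the highest value in WT 1, and Pfkfb1 between 0.403 and 0.745 FPKM, from 24 to 56 fragments a library.

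Gapdh opens the pay-off phase. Its row was listed at only 22.5, 19.9 and 33.4 FPKM in the Myrf-kd libraries and 18.0, 26.4 and 20.4 FPKM in the WT libraries, far under its neighbours in the pathway. Mouse Gapdh has many intronless copies in the genome, and a search of the Gapdh coding sequence against the GENCODE transcripts found 174 genes of at least 90% identity, of which 22 had a mean of at least 1 FPKM. The levels of these copies summed to 1326 FPKM on average, against 23.4 FPKM at Gapdh. The search also took in Peli2 (mean 7.28 FPKM), a protein-coding gene with a transcript that matched at 92.4% over 877 bases. All of its counts are in the sums given for the copies. Gm7336 held 273 FPKM, and Gm5559, Gm2606, Gm12033 and Gm12070 held 240, 222, 174 and 158 FPKM. Gm7336 matched Gapdh at 100% over 1017 aligned bases (upstream of these it differed at 26 bases, all between bases 29 and 60 of the 1077 coding bases of the Gapdh transcript used), and each of the other four at 99.9% over 999 bases. To show how little the copies differ within the aligned part, a stretch of 90 coding bases is given for Gapdh (chr6:125162951-125163040, minus strand) and for the copies Gm7336 (chr7:51747018-51747107, plus), Gm5559 (chr5:95862035-95862124, plus), Gm2606 (chr15:12575210-12575299, plus), Gm12033 (chr11:20335603-20335692, minus) and Gm12070 (chr11:26786954-26787043, plus), from the GENCODE transcripts of GRCm38, 5′ to 3′ along the coding strand. A capital marks a base that differs from Gapdh.
Gapdh: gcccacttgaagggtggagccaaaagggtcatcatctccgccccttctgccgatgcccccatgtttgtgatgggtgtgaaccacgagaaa
Gm7336: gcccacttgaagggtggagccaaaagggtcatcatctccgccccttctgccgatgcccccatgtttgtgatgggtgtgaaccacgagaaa
Gm5559: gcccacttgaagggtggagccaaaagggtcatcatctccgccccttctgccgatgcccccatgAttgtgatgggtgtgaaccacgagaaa
Gm2606: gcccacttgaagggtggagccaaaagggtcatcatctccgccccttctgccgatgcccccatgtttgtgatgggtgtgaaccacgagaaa
Gm12033: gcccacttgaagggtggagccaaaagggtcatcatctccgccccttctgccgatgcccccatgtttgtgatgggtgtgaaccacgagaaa
Gm12070: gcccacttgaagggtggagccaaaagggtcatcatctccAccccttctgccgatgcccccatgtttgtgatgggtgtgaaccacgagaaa

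In this stretch Gm5559 and Gm12070 differed from Gapdh at 1 base each and the other 3 copies at 0. By its sequence, a fragment from it could not be placed at Gapdh rather than at Gm7336, Gm2606 or Gm12033, and the way reads with several matches were counted was not given in the sources used here. Of all counts at Gapdh and its copies, 6.23% stood at Gapdh. Gapdh and its copies together gave 1739, 1590 and 2206 CPM (here on unadjusted library totals) in the Myrf-kd libraries 1 to 3 and 1605, 1845 and 1733 CPM in the WT libraries 1 to 3. The groups overlapped on this scale too, with a mean of 1845 ± 321 in Myrf-kd and 1728 ± 120 in WT (SD, n = 3 each), a ratio of 1.07. The values of the Gapdh row alone are therefore uncertain. Copies held a smaller part for 3 other genes, where 89.4% of the combined counts stood at Eno1, 93.6% at Pgam1 and 69.1% at Mpc1.

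**Figure D2:**
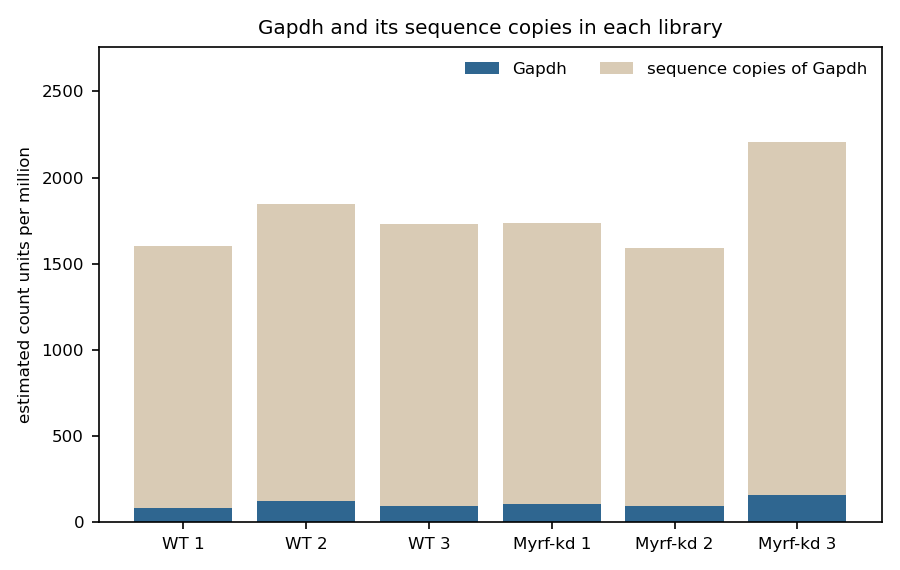
CPM on unadjusted library totals at Gapdh (blue) and at its 174 sequence copies, Peli2 included (beige), stacked, in each of the 6 libraries. Gapdh itself is the thin lower part of each bar, and the bar of Myrf-kd 3 is the tallest at 2206 CPM.

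The later pay-off enzymes were among the most abundant of the 35. Pkm, pyruvate kinase of the muscle type, stood at 365, 357 and 488 FPKM in the Myrf-kd libraries and at 349, 411 and 359 FPKM in the WT libraries. Pgk1, the X-linked phosphoglycerate kinase, lay between 239 and 302 FPKM and Pgam1, phosphoglycerate mutase, between 199.6 and 286 FPKM. Eno1, the ubiquitous enolase, was listed at 192, 179 and 221 FPKM in the Myrf-kd libraries and at 175, 191 and 180 FPKM in the WT libraries, with a log2 fold change of 0.10 ± 0.10 (edgeR quasi-likelihood, Benjamini-Hochberg adjusted p = 0.797). Eno2, the neuronal enolase, kept to between 75.4 and 83.6 FPKM. Of the 6 pay-off genes, 4 had estimates above 0 and 2 below, and the median log2 fold change was 0.09. The fitted levels were 107% of WT for Pkm (95% interval 84.4% to 135%), 106% for Pgk1 (90.6% to 125%) and 98.2% for Eno2 (88.0% to 109%). Pkm shares 767 exon bases with the same-strand gene model Gm49759, which had a mean of 35.1 FPKM. In all, 7 of the 35 genes share exon bases with another gene of at least 1 FPKM.

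At the lactate end, Ldha, which encodes the subunit that favours the making of lactate, was listed at 207, 189 and 290 FPKM in the Myrf-kd libraries and at 194, 211 and 202 FPKM in the WT libraries. Myrf-kd 3 stood alone, and Myrf-kd 1 and 2 lay within or just below the WT range. Ldhb, the subunit that favours lactate use, was even, at 90.5, 83.2 and 86.4 FPKM in the Myrf-kd libraries and 89.4, 87.1 and 91.3 FPKM in the WT libraries (log2 fold change −0.06 ± 0.06, edgeR quasi-likelihood, Benjamini-Hochberg adjusted p = 0.794). Relative to WT the fitted levels were 112% for Ldha (95% interval 85.4% to 146%) and 95.9% for Ldhb (87.1% to 106%).

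Monocarboxylate transporters and their partner complete the lactate group. Slc16a1, the broadly expressed transporter MCT1, was the main one, between 49.1 and 53.7 FPKM over the 6 libraries, and Bsg, basigin, lay between 174 and 199.9 FPKM. Both were tightly bounded, at 101% of WT for Slc16a1 (95% interval 91.7% to 111%) and 101% for Bsg (89.4% to 114%). Slc16a3, which encodes MCT4, the exporter of highly glycolytic cells, stood at 2.55, 1.88 and 5.10 FPKM in the Myrf-kd libraries and at 2.70, 2.80 and 2.45 FPKM in the WT libraries. Slc16a7, which encodes MCT2, was listed at 0.762, 0.226 and 0.254 FPKM in the Myrf-kd libraries and 0.193, 0.682 and 0.720 FPKM in the WT libraries, so each group held high and low values.

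Slc16a8 (ENSMUSG00000032988, chromosome 15, 79251014 to 79254761, minus strand), which encodes MCT3, the transporter of the retinal pigment epithelium, had the smallest p of the 33. It was listed at 1.008, 1.26 and 0.846 FPKM in the libraries Myrf-kd 1, 2 and 3 and at 1.40, 1.60 and 1.61 FPKM in WT 1, 2 and 3. Every Myrf-kd value was below every WT value. The log2 fold change was −0.58 ± 0.20 (unadjusted p = 0.0244), and it did not pass over all genes (edgeR quasi-likelihood, Benjamini-Hochberg adjusted p = 0.666). Relative to WT the fitted level was 66.9% (95% interval 48.0% to 93.2%). These values rest on 38 to 73 fragments in a library. The summed markers of the retinal pigment epithelium, an attached tissue that can come away with a dissected retina, were 303, 304 and 368 CPM in the Myrf-kd libraries and 346, 369 and 393 CPM in the WT libraries. Rpe65, a defining gene of that tissue, stood at 13.5, 19.9 and 28.2 CPM in the Myrf-kd libraries and at 23.7, 27.1 and 33.5 CPM in the WT libraries. Otx2 was the largest part of the marker sums, at 136 to 160 CPM in Myrf-kd and 133 to 153 CPM in WT. The marker sums and Rpe65 overlapped between the groups, and the part of that tissue in the Slc16a8 values was not tested.

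The genes that pass pyruvate on to mitochondria had levels close to even between the groups. Pdha1 and Pdhb, subunits of pyruvate dehydrogenase, ranged from 30.7 to 34.2 FPKM and from 33.04 to 36.3 FPKM. Pdha1 was listed at 30.7, 30.9 and 32.1 FPKM in the Myrf-kd libraries and at 31.7, 32.6 and 34.2 FPKM in the WT libraries, with a log2 fold change of −0.09 ± 0.06 (edgeR quasi-likelihood, Benjamini-Hochberg adjusted p = 0.724). The carrier subunits Mpc1 and Mpc2 were low, between 5.68 and 6.71 FPKM and between 3.46 and 4.28 FPKM. Mpc1 gave a log2 fold change of −0.13 ± 0.11 (edgeR quasi-likelihood, Benjamini-Hochberg adjusted p = 0.766), with reads that can also come from its copies. Mpc1 and its copies together gave 20.1, 19.2 and 20.6 CPM (on unadjusted library totals) in the Myrf-kd libraries and 21.0, 23.8 and 22.7 CPM in the WT libraries. On this scale the groups did not overlap, with a mean of 19.97 ± 0.698 in Myrf-kd and 22.5 ± 1.38 in WT (SD, n = 3 each), a ratio of 0.888, which was not tested. On unadjusted library totals 15% of all genes tested separated. The same sums for Eno1 and Pgam1 with their copies overlapped between the groups. The inhibitory kinases Pdk1, Pdk2 and Pdk3 lay between 6.58 and 7.44, between 16.2 and 18.5 and between 9.90 and 12.4 FPKM. All 7 estimates were closer to 0 than 0.2, with 4 above 0, 3 below and a median log2 fold change of 0.01.

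**Figure D3:**
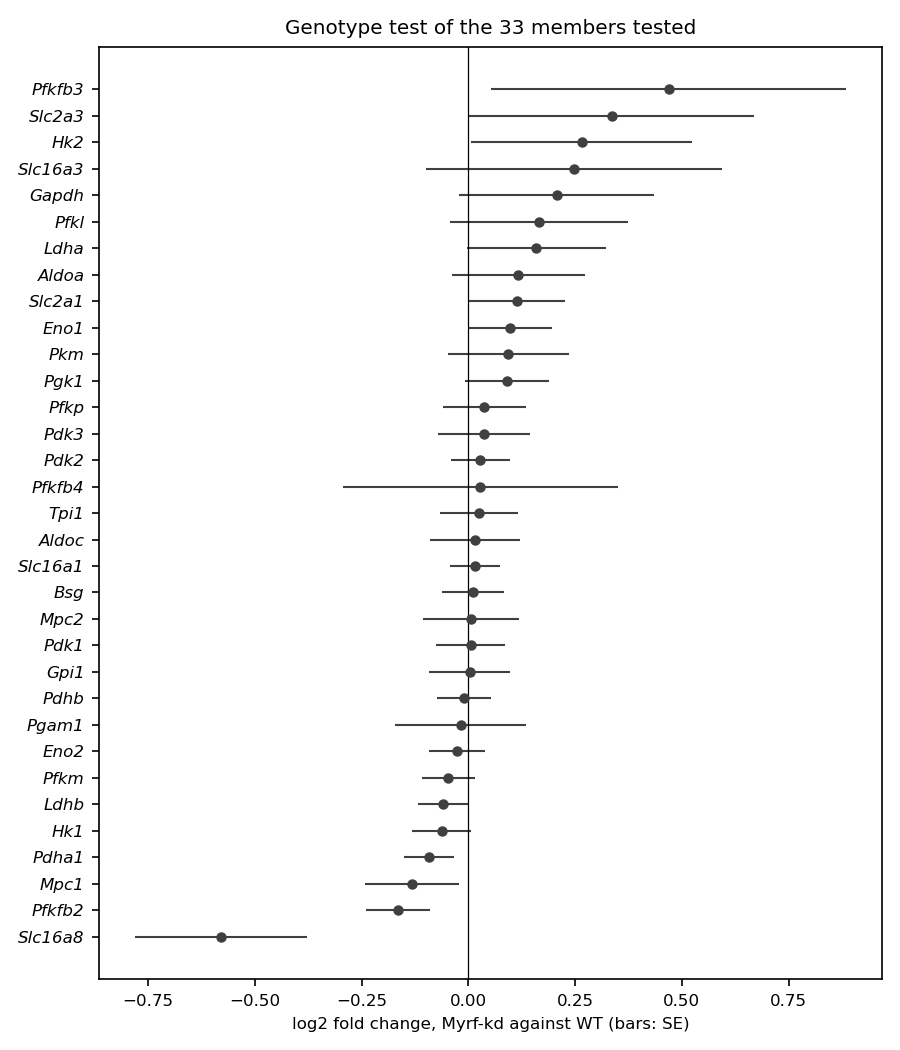
Fitted log2 fold change of the 33 genes tested, Myrf-kd against WT, with bars of 1 standard error, ordered by size. Estimates run from −0.58 (Slc16a8) to 0.47 (Pfkfb3), and the bar of Pfkfb3, 0.42, is the widest.

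The levels also differed between libraries of the same genotype. Myrf-kd 3 held the highest CPM for 22 of the 33 genes tested (66.7%), whereas it did so for 25.7% of all genes tested. On the FPKM scale it did so for 21 of the 33. Without Gapdh, Eno1, Pgam1 and Mpc1, whose reads can belong to copies, it was 19 of 29. Its median log2 ratio to the mean of the other libraries was 0.22 for the 33 genes and 0.00 for all genes. Myrf-kd 3 led for 8 of 9 preparatory enzymes, 5 of 6 pay-off enzymes, both glucose transporters and 4 of the 6 lactate genes tested, but for 2 of 7 pyruvate entry genes. Of the other Myrf-kd libraries, Myrf-kd 2 held the lowest level for 14 of the 33 genes (42.4%, against 16.3% of all genes) and Myrf-kd 1 the highest for 0 of 33 (against 11.8% of all genes), so the Myrf-kd group held both ends of the range.

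By size, the ratio of Myrf-kd 3 to the mean of the other libraries was 2.04 for Slc16a3, 1.83 for Pfkfb3, 1.77 for Hk2, 1.56 for Pfkl and 1.55 for Gapdh. It was 1.44 for Ldha, 1.38 for Aldoa, 1.32 for Pkm, 1.26 for Pgam1, 1.204 for Pgk1 and 1.199 for Eno1. For other isoforms of the same steps the ratio was 0.927 for Hk1, 0.974 for Ldhb, 0.988 for Eno2 and 1.06 for Pfkm. At the low end stood Pdk2 at 0.922, Pdk3 at 0.911, Pfkfb2 at 0.897 and Slc16a8 at 0.610. These ratios describe a single library and carry no test. Myrf-kd 3 also had the highest lens marker sum, 64.0 CPM, and the highest sums for skeletal muscle markers (128 CPM against 103 to 111 CPM) and bipolar cell markers (265 FPKM against 201 to 231 FPKM, or 1427 CPM against 1223 to 1422 CPM). The skeletal muscle sum was mostly Pygm, a glycogen gene, at 102 CPM in Myrf-kd 3 against 80.6 to 86.7 CPM elsewhere. Pygm and Eno3 are also among the other genes of glucose metabolism followed below. The muscle markers Acta1, Ckm, Myh1 and Tnnt3 stood at 2.08 CPM or less in every library. Single markers, picked after their values were seen, stood further apart in this library. Cabp5 of bipolar cells was at 165 CPM against 95.6 to 105 CPM in the other libraries, and the rod marker Rcvrn at 1304 CPM against 811 to 969 CPM. The rod markers Sag, at 4147 CPM against 5797 to 6567 CPM, and Nr2e3, at 373 CPM against 541 to 667 CPM, were lowest there. Its sums for Mueller glia (4932 CPM) and retinal pigment epithelium (368 CPM) lay within the range of the other libraries, and its cone sum, 1604 CPM, was the highest by a small margin (1465 to 1598 CPM elsewhere). The part of these values in the pattern was not tested.

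**Figure D4:**
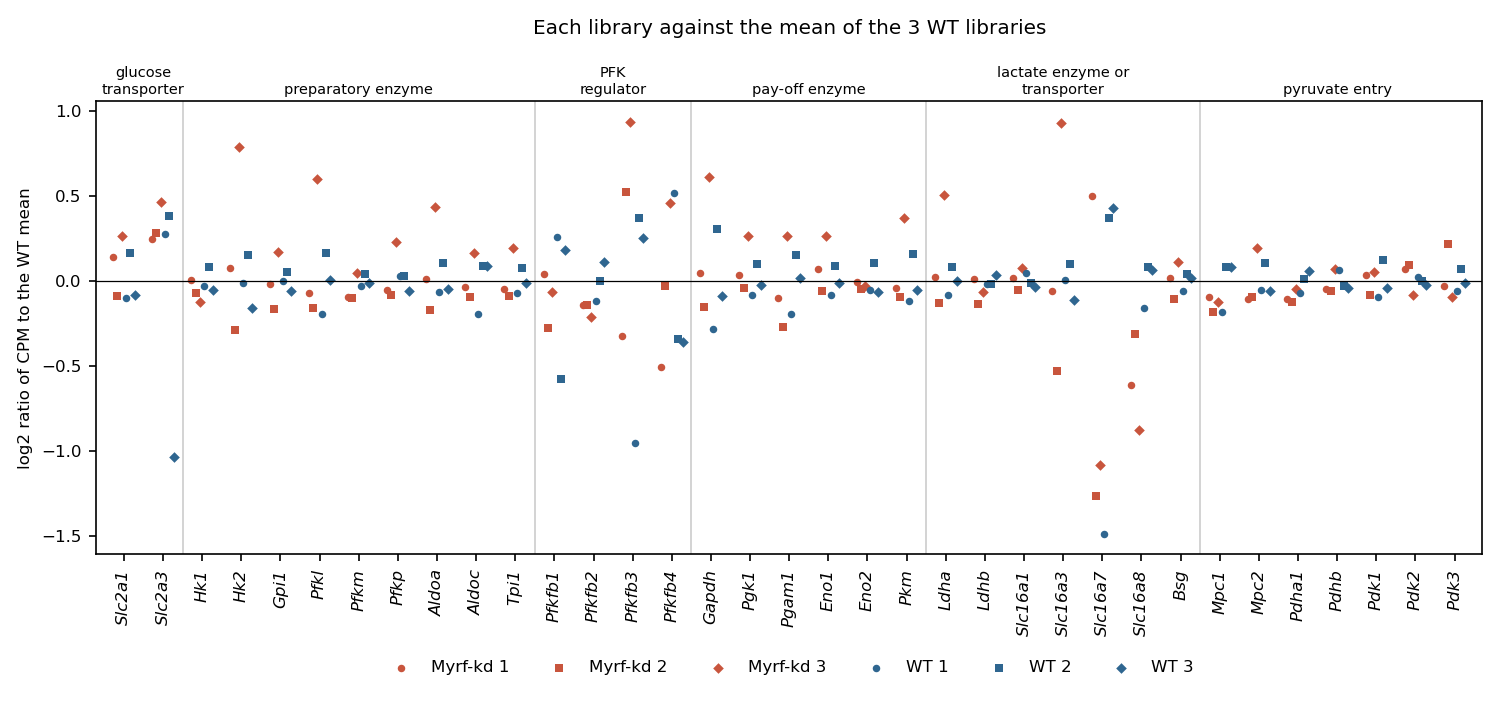
Log2 ratio of the CPM of each library to the mean of the 3 WT libraries, for each of the 35 genes in pathway order, with 1 point per library. The red diamonds (Myrf-kd 3) are the top points for 22 of the 33 genes tested, and the blue diamond for Slc2a3 (WT 3) lies far below the rest.

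The sum over the 35 genes was 13792, 12878 and 16575 CPM in the Myrf-kd libraries 1 to 3 and 13226, 14827 and 13569 CPM in the WT libraries 1 to 3. The mean of Myrf-kd, 14415 ± 1925 CPM, was 1.04 times that of WT, 13874 ± 843 CPM (SD, n = 3 each), and 0.961 times without Myrf-kd 3. In FPKM the 35 genes took between 1.14% and 1.44% of the summed FPKM of a library. Myrf-kd 3 and WT 3 were both from females. WT 3 held the highest CPM for 3 of the 33 genes, and for 16.9% of all genes. In a fit with genotype and sex, 0 of the 33 genes passed for female against male (edgeR's quasi-likelihood test), where 0.0805% of all genes did, and 0 had an unadjusted p under 0.05, against 5.59% of all genes. The X-linked Pgk1 gave a log2 difference of 0.12, Pdha1 of 0.08 and Pdk3 of −0.10, female against male, with edgeR quasi-likelihood adjusted p of 0.831, 0.824 and 0.860.

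The make-up of each step was followed as the share of 1 isoform in the summed FPKM of its family, which does not depend on how libraries are scaled. The size of a share does depend on the unit. By counts the mean share over the 6 libraries was 15.4% for Pfkm, 16.5% for Ldhb and 36.2% for Slc2a3, and by FPKM 37.3%, 29.3% and 21.8%. The shares of Hk2, Aldoc and Eno2 changed less. Hk2 made up 34.0%, 29.7% and 47.9% of hexokinase FPKM in Myrf-kd 1, 2 and 3 and 33.2%, 34.0% and 31.3% in WT 1, 2 and 3. Only the value of Myrf-kd 3 stood out, and the difference of 4.41 percentage points did not hold against the spread (exact two-sided permutation test, p = 0.7). Without Myrf-kd 3 it was −0.947 points. Ldhb made up 30.5%, 30.6% and 22.9% of lactate dehydrogenase FPKM in Myrf-kd and 31.6%, 29.2% and 31.1% in WT (difference −2.66 points, p = 0.5 by the same exact test). Pfkl reached 28.1% of phosphofructokinase FPKM in Myrf-kd 3 and between 19.96% and 23.7% elsewhere. The share of Pfkm lay between 33.1% and 38.4% in Myrf-kd and between 37.6% and 38.6% in WT (difference −1.86 points, exact p = 0.3). Eno2 made up 29.1%, 30.4% and 26.1% of enolase FPKM in Myrf-kd and 30.6%, 30.5% and 29.5% in WT (difference −1.67 points, exact p = 0.2). Aldoc gave a difference of −0.899 points (exact p = 0.6) and Slc2a3 one of 3.28 points (exact p = 0.8), which was −0.832 points without WT 3. Adjusted over the 6 families every p was 0.8, and 3 libraries against 3 cannot give an exact p below 0.1. In Myrf-kd 3 the shares of Hk2 and Pfkl were the highest of the 6 libraries, and those of Ldhb, Eno2, Aldoc and Pfkm the lowest.

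**Figure D5:**
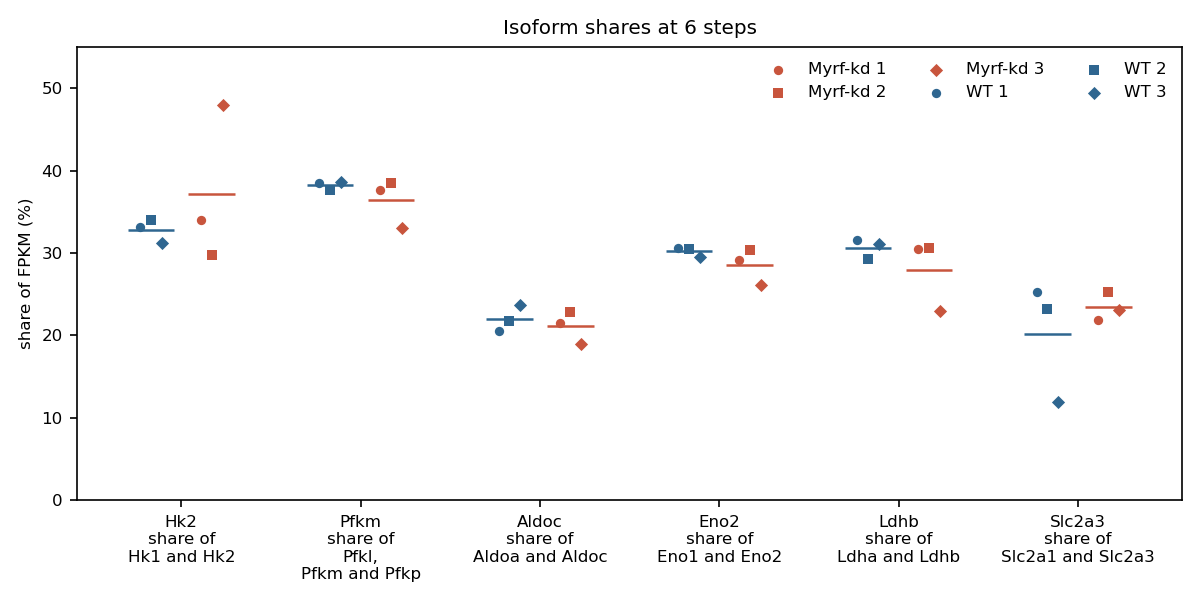
Share of 1 isoform in the summed FPKM of its family, in percent, for 6 steps of the pathway, with 1 point per library and a bar at the group mean. The red diamond (Myrf-kd 3) lies apart from the other points for Hk2 (47.9%) and Ldhb (22.9%), and the blue diamond (WT 3) for Slc2a3 (11.9%).

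The promoters of 4 of these genes, 250 bases before to 50 bases after the start, are printed as examples: Hk2, Ldha and Slc16a3, for which Myrf-kd 3 was the highest library, and Slc16a8, for which it was the lowest. They were picked with the levels known and are not the genes with the largest ratios, since Pfkfb3, Pfkl and Gapdh stood above Ldha. They are RefSeq promoters of GRCm38.p6, 5′ to 3′ on the gene's strand: Hk2 chr6:82774405-82774704 (minus), Ldha chr7:46845554-46845853 (plus, the first of 2 listed), Slc16a3 chr11:120948817-120949116 (plus) and Slc16a8 chr15:79254699-79254998 (minus). Capitals mark ACGTG on either strand, the core letters of the element that hypoxia-inducible factors are known to bind, read as CACGT where it lies on the other strand. Runs of CACGTG hold it on both strands.
Hk2: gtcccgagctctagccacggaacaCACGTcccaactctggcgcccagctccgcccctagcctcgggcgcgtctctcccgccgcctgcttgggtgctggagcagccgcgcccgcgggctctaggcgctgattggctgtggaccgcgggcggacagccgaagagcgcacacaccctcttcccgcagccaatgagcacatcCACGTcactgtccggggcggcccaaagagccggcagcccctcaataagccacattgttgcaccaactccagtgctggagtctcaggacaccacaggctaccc
Ldha: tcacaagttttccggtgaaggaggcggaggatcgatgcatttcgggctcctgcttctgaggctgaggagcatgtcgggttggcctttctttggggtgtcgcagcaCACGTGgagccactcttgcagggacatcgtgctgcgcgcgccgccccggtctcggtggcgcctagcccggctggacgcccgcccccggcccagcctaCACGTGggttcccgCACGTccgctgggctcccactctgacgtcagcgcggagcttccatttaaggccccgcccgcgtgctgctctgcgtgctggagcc
Slc16a3: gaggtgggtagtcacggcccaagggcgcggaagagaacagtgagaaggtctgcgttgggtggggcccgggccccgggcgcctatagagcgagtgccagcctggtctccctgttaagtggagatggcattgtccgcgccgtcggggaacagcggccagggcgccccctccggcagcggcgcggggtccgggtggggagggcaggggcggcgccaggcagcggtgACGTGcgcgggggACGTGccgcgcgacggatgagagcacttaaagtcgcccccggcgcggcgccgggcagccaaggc
Slc16a8: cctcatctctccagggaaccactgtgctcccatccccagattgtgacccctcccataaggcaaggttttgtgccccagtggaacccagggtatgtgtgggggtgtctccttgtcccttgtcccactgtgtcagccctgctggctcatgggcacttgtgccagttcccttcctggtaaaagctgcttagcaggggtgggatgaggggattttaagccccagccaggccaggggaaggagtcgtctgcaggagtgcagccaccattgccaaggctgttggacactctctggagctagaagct

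The Hk2 and Slc16a3 promoters held 2 matches each, the Ldha promoter 5 and the Slc16a8 promoter 0. Of those not printed, both promoters of Pfkfb3 and the 1 of Gapdh held a match, and the 1 of Pfkl held 0. Those of Eno1, Gpi1, Pfkp, Tpi1 and Mpc2, also highest in Myrf-kd 3, held 0. All other genes highest there with a listed promoter held a match. Apart from Slc16a8, the genes lowest in Myrf-kd 3 all held a match too. It lay in 1 of 2 promoters of Hk1, 2 of 3 of Pfkfb2, 1 of 2 of Pdk2 and the 1 of Pdk3. Promoters were listed for 32 of the 35 genes, all but Slc2a3, Bsg and Slc16a7. Of the 52 promoters of these genes 22 held ACGTG on either strand (42.3%), against 25.3% of the promoters of all genes tested and 19.6% of all 32851 promoters. A match says only that these letters lie in the window, and no data on binding were used here.

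Beyond the 35, 109 other genes of glucose metabolism were followed in 8 lists, and 83 of them were tested. None passed in either direction (edgeR quasi-likelihood test, Benjamini-Hochberg adjustment), against 0.0439% of all genes tested. By the same test 5 of the 83 had an unadjusted p under 0.05, where 7.49% of all genes did. Of the estimates, 44 were above 0 and 39 below, and the median log2 fold change was 0.00. Other isoenzymes of glycolysis gave 5 estimates above and 5 below 0 of 10 tested, the pentose phosphate pathway 4 and 3 of 7, and the TCA cycle 8 and 6 of 14. Further genes of pyruvate entry gave 6 above and 4 below of 10, and shuttles and energy transfer 7 and 4 of 11. The list of control genes, such as oxygen and glucose sensors, gave 3 above and 7 below of 10. Glycogen and gluconeogenesis genes gave 9 above and 3 below of 12, and transporters and their partners 2 above and 7 below of 9. Myrf-kd 3 held the highest level for 29 of the 83 (34.9%), against 25.7% of all genes tested.

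The other genes with the smallest p included partners of the transporters. Txnip, which promotes the removal of GLUT1 from the cell surface, stood at 20.8, 26.1 and 19.6 CPM in the Myrf-kd libraries and at 37.4, 48.1 and 30.7 CPM in the WT libraries, with no overlap. Its log2 fold change of −0.80 ± 0.19 did not pass (edgeR quasi-likelihood, Benjamini-Hochberg adjusted p = 0.666), and DESeq2 gave an adjusted p of 0.0137, the lowest of its alternatives, which reached 0.904. Nptn, neuroplastin, which can partner monocarboxylate transporters, was at 189, 173 and 183 CPM in the Myrf-kd libraries and at 294, 197 and 303 CPM in the WT libraries. WT 1 and WT 3, which also had the highest rod marker sums, were its high libraries, and the part of the rods in its log2 fold change of −0.54 ± 0.16 was not tested. Vhl, the ubiquitin ligase subunit that marks hypoxia-inducible factors for destruction, was at 28.4, 42.9 and 42.7 CPM in the Myrf-kd libraries and 50.1, 52.1 and 56.7 CPM in the WT libraries (−0.48 ± 0.17). Esrra, a nuclear receptor of energy metabolism, at 0.24 ± 0.10, was higher in every Myrf-kd library than in any WT library. Mlx, a partner of the glucose-sensing factor ChREBP, at 0.36 ± 0.18, overlapped. Of all genes tested 14.6% separated in either direction, and the genes named here were picked by their small p. The edgeR quasi-likelihood adjusted p was 0.666 for Nptn, Vhl and Esrra and 0.695 for Mlx.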

How the data were processed

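RNA of mouse retina was sequenced in 6 libraries, 3 per genotype, grouped and numbered by their sample titles. The submitters' processing notes name GRCm38, HISAT2 2.0, StringTie 1.3.0 and Bowtie 0.12.2 without a role. The treatment of strand and of reads with several matches was not given in the sources used here. The authors deposited FPKM values per gene, per the file headers. They also deposited whole-number counts, which were read as estimated counts since 4 units stood for about 1 fragment; rounding changed none. Every column of values belonged to 1 of the 6 libraries (0 without a sample).

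Genes with a mean of at least 1 FPKM (13673) were tested with edgeR 4.0.16 (quasi-likelihood, TMM, genotype as the only term, two-sided, R 4.3.3), tested first on simulated data, with Benjamini-Hochberg adjustment over all of them and a threshold of 0.05. The SE is the log2 fold change over the root of F. DESeq2 1.42.0, limma 3.58.1 on log2(FPKM + 1) and log2(FPKM + 0.1), other filters and scalings, a replicate block, sex as a covariate, males only and the omission of each library were alternatives. Members with full statistics are those with the smallest p, up to 10, and other pathway genes up to 6, of which 1 is not reported here. Copies were found with blastn 2.17.0 (at least 90% identity over 200 bases and 50% of the copy). Leaving out genes with copies and adding the copies of Gapdh were chosen after seeing the data. The members and lists were chosen with earlier results of these data known. Deviations from the group mean correlated at −0.04, 0.08 and 0.14 between same-numbered libraries, and between −0.14 and 0.09 for the other pairs. With 3 libraries per group this cannot decide whether the replicate numbers pair the samples.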

Additional observations from a re-analysis of the deposited data

How the results depend on the processing

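The count of the 33 genes past the threshold was 0 in all 16 alternatives run. Over all genes the count of 6 was 2 with a mean FPKM of at least 5, 53 by DESeq2, 22 with male libraries only, and between 9 and 16 when a library was left out, the lone pair of a reduced group being assumed to vary like the other group. With the replicate block it was 0, with 702 genes at an unadjusted p under 0.05 (edgeR quasi-likelihood test). The check of deviations could not decide whether the numbers pair the samples. With the block the median log2 fold change of the members was 0.02. The count of members whose groups did not overlap, 2, was 1 with a mean FPKM of at least 5 and 1 with library totals only. It was 10 with male libraries only (9 lower in Myrf-kd, where 36.1% of all genes separated) and between 2 and 7 when a library was left out; the 7 arose without Myrf-kd 3, beside 25.8% of all genes, since fewer libraries separate more easily. The median log2 fold change lay between −0.06 (without Myrf-kd 3) and 0.07 when a library was left out and was −0.07 with male libraries only. With male libraries only, the estimates of Hk2, Slc2a3 and Slc2a1 turned to −0.16, −0.061 and −0.0074, and when a library was left out Hk2 ranged from −0.091 (without Myrf-kd 3) to 0.48 (without Myrf-kd 2). The difference in summed level, 541 CPM, ranged from −539 (without Myrf-kd 3) to 1309 CPM. Each of the 6 differences in isoform share moved by less than 1 SD between libraries from its value with all libraries. That yardstick is wide where a library stands apart: for Hk2 the SD was 9.53 points in Myrf-kd and 1.40 in WT. The sign changed for Hk2 (4.41 to −0.947 points without Myrf-kd 3), Slc2a3 (3.28 to −0.832 without WT 3) and Aldoc (−0.899 to 0.192 without Myrf-kd 3). It held for Eno2, Ldhb and Pfkm. Low depth limits Slc16a8, Pfkfb1 and Slc16a7, and shared sequence limits Gapdh.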
